A study of Mus musculus with 12 samples.

Results

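The core circadian clock of the mouse liver was followed through 10 genes, taken by their symbols from both deposited tables and making up 10 of the 46564 gene names listed there. They were the 3 genes of the positive limb (Arntl, Clock and Npas2) and the 7 of the negative limb (Per1, Per2, Per3, Cry1, Cry2, Nr1d1 and Nr1d2). RNA from 12 livers, 3 in each of 4 groups, had been sequenced to compare obese with control animals. The dietary model fed wild-type C57BL/6 mice for 30 weeks on chow of high fat content (HFD, 54 kJ%) or on a control chow (CD, 11 kJ%). In the genetic one, mice labelled Leprdb (db), in which the long form of the leptin receptor does not work in any cell, were compared with misty mice, which the study's methods take as controls while the text submitted with the series counts them among the obesity models. Both of these groups ate the control diet. All 12 mice are labelled as 36 weeks old and as C57BL/6, whereas the methods of the study put db and misty at a younger age, in another number of animals and on the BKS background, and describe the mice as male.

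The clock is a feedback loop of transcription that runs in nearly every cell with a period of about a day. ARNTL (also known as BMAL1) pairs with CLOCK or its relative NPAS2, binds E-box elements and switches on the Per and Cry genes, whose proteins return to the nucleus and silence the pair. The pair also switches on the nuclear receptors NR1D1 and NR1D2 (REV-ERB alpha and beta), which repress Arntl at elements that the activating ROR receptors share. In liver, the mRNAs of Arntl and Npas2 are known to peak at another time of day than those of Nr1d1, Per1, Per2 and the output gene Dbp. The hour at which the livers were collected is not given in the sources used here.

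The levels are FPKM (fragments scaled by transcript length and library size), a scale per length on which genes of 1 group were set side by side. Some listed values are extreme, up to 9.68e+08 FPKM in the dietary model and 7.85e+08 in the genetic one, so comparisons of level between genes are rough. Each transcript has 1 FPKM per group, pooled over the livers by the authors' quantifier, so the spread between animals is unknown, no test was run and no difference below has a replicate check. The depth per liver is unknown. A transcript was used where the quantifier marked it as having enough data to be tested (status OK), and the most abundant such transcript of a gene, its main transcript, stands for the gene. The log2 ratio is that of FPKM + 0.1 in the obese over the control group (db over misty in the genetic model), which understates differences of low transcripts, and 2-fold was taken as the mark. The tables were normalized separately, so levels are compared within a table only. In total RNA of whole liver, fewer cells of a type and less RNA per cell cannot be told apart.

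The loop is known to close on itself through short motifs in promoters, and 5 stretches of member promoters that hold such letters are shown for that reason. RefSeq windows (build GRCm38.p6) of 250 bases before to 50 bases after a start were found for 9 of the 10 members, with 13 windows in all. Per2 had no window, so its promoter was not searched. They were searched on both strands for the E-box CACGTG, its variant CACGTT, the shared ROR and REV-ERB core TAGGTCA and the D-box TTANNTAA, the element of Dbp and its relatives. No 2 motifs overlapped in these windows. Capitals mark the motif, and a motif lying on the opposite strand reads as its reverse complement.
Per1, E-box, chr11:69098743-69098828, plus strand: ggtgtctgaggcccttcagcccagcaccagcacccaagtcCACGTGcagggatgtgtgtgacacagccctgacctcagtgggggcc
Cry1, E-box variant and E-box, chr10:85185069-85185173, minus strand: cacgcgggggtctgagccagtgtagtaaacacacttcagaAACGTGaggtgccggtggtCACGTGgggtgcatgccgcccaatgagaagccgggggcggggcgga
Cry2, E-box variant, chr2:92434190-92434275, minus strand: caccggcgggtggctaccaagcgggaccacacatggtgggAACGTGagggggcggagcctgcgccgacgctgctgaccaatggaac
Nr1d1, E-box variant, chr11:98775378-98775445, minus strand: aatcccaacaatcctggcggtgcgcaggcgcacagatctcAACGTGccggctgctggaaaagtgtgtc
Arntl, ROR and REV-ERB core, chr7:113207530-113207558, plus strand: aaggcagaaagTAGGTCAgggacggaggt

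The E-box CACGTG lay in the windows of 2 member genes, at base -166 from the start of Per1 and base -60 of Cry1, while 7.15% of all 32851 windows hold it. A window at a later start of Per1 held none of the motifs. The variant CACGTT lay in 3, at base -79 of Cry1, -166 of Cry2 and -28 of Nr1d1, against 4.68% of all windows. The core TAGGTCA was found in Arntl alone of the members searched, at base 31 after the later of its RefSeq starts, against 2.61% of all windows. The window of the earlier Arntl start held none of the motifs. The main transcript, Arntl-002, is listed as starting at base 113207557, near the end of the stretch shown, so the motif lies before that start. Of the members searched, the D-box was found only in Per3, at 2 places, against 6% of all windows. The windows of Clock, Npas2 and Nr1d2 held none of these motifs. A match is a run of letters and not a measured binding site.

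In HFD over CD, 7 of the 10 members had a tested main transcript, and 1 of these, Arntl, was past 2-fold. It was lower. Among all named genes, 2.81% were past 2-fold lower, 6.62% past 2-fold higher and 9.43% past it in either direction. The median log2 ratio of the 7 members was -0.33, beside -0.01 for all named genes, with 2 members above 0 and 5 below. Per3, Npas2 and Nr1d2 had no transcript with enough data.

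In db over misty, 9 of the 10 members had a tested main transcript and 3 were past 2-fold. Per2 was higher, and Arntl and Npas2 were lower. Among all named genes, 7.06% were past 2-fold higher, 4.81% past 2-fold lower and 11.9% past it in either direction. The median log2 ratio of the 9 members was 0.25, beside -0.00074 for all named genes, with 5 members above 0 and 4 below. Per3 again had no transcript with enough data. Transcripts pass the status filter through the group in which they are abundant, so these counts describe the listed members and carry no weight on their own.

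**Figure D1:**
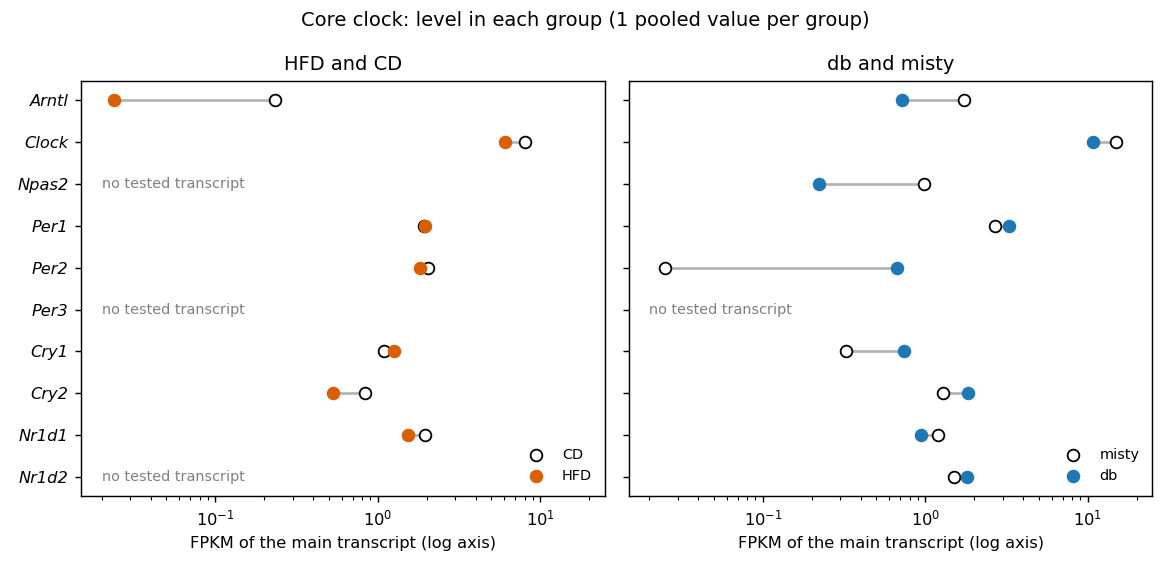
FPKM of the main transcript of each core clock gene on a log axis, with HFD and CD on the left and db and misty on the right. Open points are CD and misty, filled points HFD and db, and each point is 1 pooled value with no error bar. Arntl has the widest gap on the left (0.232 in CD and 0.0237 in HFD) and Per2 on the right (0.0252 in misty and 0.674 in db).

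Arntl (chr7:113207465-113314126, plus strand, GRCm38), the one activator that the loop cannot run without, was lower in the obese group of both models. Its FPKM was 0.232 in CD and 0.0237 in HFD, a log2 ratio of -1.42 or 2.68-fold lower on the FPKM + 0.1 scale. The table of this model lists 1 of the 6 annotated Arntl transcripts, and both values are low, so the ratio moved from -2.84 with a pseudocount of 0.01 to -0.27 with a pseudocount of 1. In the genetic model the same transcript, Arntl-002, stood at 1.74 FPKM in misty and 0.721 in db, a log2 ratio of -1.16 or 2.24-fold lower. Other Arntl transcripts listed there also had ratios below 0. Arntl-005 stood at 0.579 FPKM in misty and 0.179 in db, a log2 ratio of -1.28. Arntl-001 stood at 0.561 and 0.234, a log2 ratio of -0.99. Summed over its 3 transcripts, Arntl gave 2.88 FPKM in misty and 1.13 in db. The antisense gene Gm45355 shares 33 exonic bases with Arntl, and whether the quantifier used the strand of the libraries is not given in the sources used here.

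Clock (chr5:76209868-76304792, minus strand), the partner of ARNTL and a histone acetyltransferase, was the most abundant member in all 4 groups. It stood at 8.06 FPKM in CD and 6.03 in HFD, a log2 ratio of -0.41, and at 14.9 in misty and 10.8 in db, a log2 ratio of -0.46. Both ratios were below 0 and neither was past 2-fold.

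Npas2 (chr1:39193731-39363236, plus strand), which can take the place of CLOCK beside ARNTL, was lower in db. Its main transcript stood at 0.982 FPKM in misty and 0.221 in db, a log2 ratio of -1.75 or 3.37-fold lower. A further transcript that matches the same reference, Npas2-001, stood at 0.624 and 0.143, a log2 ratio of -1.57. The table of the dietary model lists a shorter Npas2 transcript without enough data, at 0.264 FPKM in CD and 0.152 in HFD.

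Per2 (chr1:91415982-91459324, minus strand), a repressor that carries CRY proteins into the nucleus, had the largest ratio of any main transcript among the members. It stood at 0.0252 FPKM in misty and 0.674 in db, a log2 ratio of 2.63 or 6.18-fold higher. A second listed row of the same reference, without enough data, stood at 0.129 in misty and 0.0920 in db. Summed over both rows Per2 gave 0.155 and 0.766 FPKM, a log2 ratio of 1.77, still past 2-fold but smaller in size than that of the summed Npas2 rows, -1.88. Under HFD feeding the main transcript differed less, at 2.05 FPKM in CD and 1.81 in HFD, a log2 ratio of -0.17. The other row of that table was low, at 0.125 in CD and 0.214 in HFD, with a log2 ratio of 0.48.

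Per1 (chr11:69095217-69109960, plus strand), the Per gene that responds fastest to light and hormones, was within 2-fold in both models. Per1-001 stood at 1.93 FPKM in CD and 1.94 in HFD, a log2 ratio of 0.01, and at 2.68 in misty and 3.29 in db, a log2 ratio of 0.29. Per1-003 stood at 1.26 in CD and 0.953 in HFD, and at 1.95 in misty and 2.90 in db, with log2 ratios of -0.37 and 0.55. Both ratios were above 0 in db, while in HFD they had opposite signs. Per3 (chr4:151003652-151044665, minus strand), the third Per gene, had 1 of its 5 annotated transcripts listed in each model. That transcript was listed at values next to 0 in every group and without enough data. No ratio is given, and the level of Per3 as a gene is not known from these values.

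Cry1 (chr10:85131702-85185054, minus strand), the stronger of the CRY repressors, lay just under the 2-fold mark in db. Its main row stood at 0.324 FPKM in misty and 0.745 in db, a log2 ratio of 1.00 or 1.99-fold. The other rows of the same reference stood at 0.373 and 0.495, and at 0.252 and 0.393, so that all 3 ratios were above 0 and none past 2-fold. Their sum was 0.948 FPKM in misty and 1.63 in db, a log2 ratio of 0.73. Cry1 in the dietary model stood at 1.09 FPKM in CD and 1.27 in HFD, a log2 ratio of 0.19.

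Cry2 (chr2:92403646-92434043, minus strand), its paralogue, stood at 0.829 FPKM in CD and 0.532 in HFD, a log2 ratio of -0.56, and at 1.29 in misty and 1.82 in db, a log2 ratio of 0.47. The signs were opposite in the 2 models and neither value was past 2-fold. Cry2 shares 295 exonic bases with D930015M05Rik on the opposite strand, so its values are uncertain where strand was not used.

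Nr1d1 (chr11:98767932-98775333, minus strand), the main repressor of Arntl in liver, was within 2-fold in both models. It stood at 1.95 FPKM in CD and 1.53 in HFD, a log2 ratio of -0.33, and at 1.20 in misty and 0.944 in db, a log2 ratio of -0.32. Its last exon is known to run against that of Thra, and the genes share 263 exonic bases on opposite strands, with the same reservation as for Cry2. Nr1d2 (chr14:18204054-18239127, minus strand), the second REV-ERB, stood at 1.503 FPKM in misty and 1.81 in db, a log2 ratio of 0.25, and a further row without enough data at 0.0958 and 0.0572. In the dietary model it was listed without enough data, at 0.191 in CD and 0.102 in HFD.

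**Figure D2:**
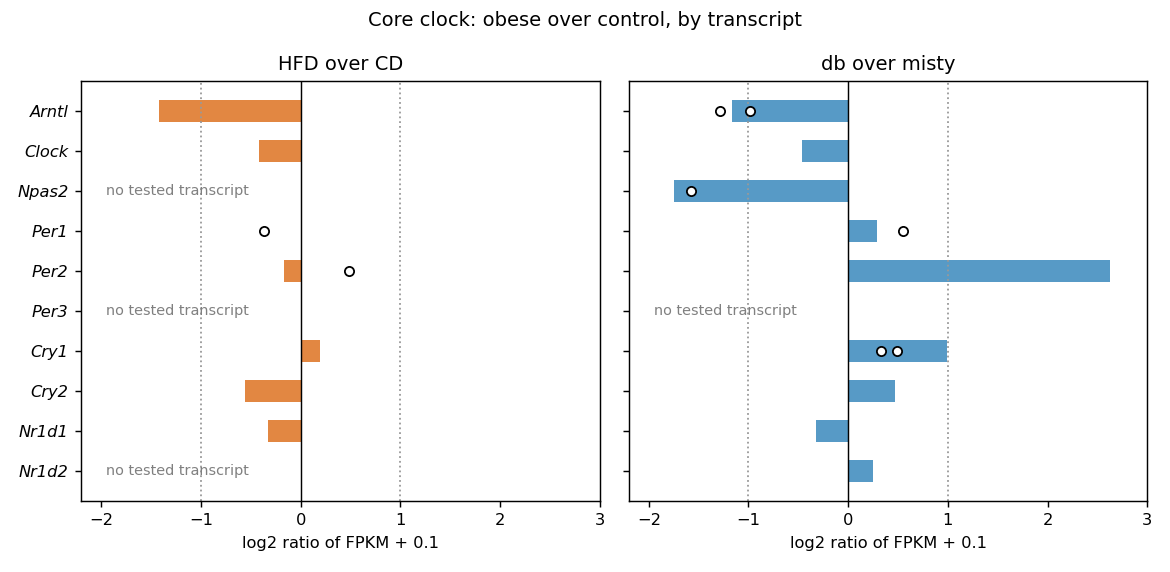
Log2 ratio of FPKM + 0.1, HFD over CD and db over misty, for each core clock gene. Bars are main transcripts, open points the other tested transcripts of the gene, and dotted lines mark 2-fold. In db over misty the activators Arntl (-1.16), Clock (-0.46) and Npas2 (-1.75) lie below 0, as does Nr1d1 (-0.32). The tested Per and Cry genes lie above 0, from 0.29 for Per1 to 2.63 for Per2, as does Nr1d2 (0.25). In HFD over CD only Arntl (-1.42) passes 2-fold.

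By limb, all 3 genes of the positive limb had log2 ratios below 0 in db over misty, with Arntl and Npas2 past 2-fold and Clock at -0.46. Of the 6 tested genes of the negative limb, 5 had ratios above 0, with Per2 alone past 2-fold, and Nr1d1 lay below it. Among all named genes 50% lay above 0 and 50% below. Under HFD both tested genes of the positive limb had ratios below 0, with Arntl past 2-fold and Clock at -0.41. Of the 5 tested genes of the negative limb, 2 (Per1 and Cry1) were above 0 and 3 (Per2, Cry2 and Nr1d1) below it, none past 2-fold, beside 48.9% of all named genes above 0 and 51.1% below. Whether the models differ in any member was not tested, since each model has 1 value per group.

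Within each group the order of the members by level of the main transcript could be read, without a spread to say which neighbours differ. In CD the order from Clock down was Per2, Nr1d1, Per1, Cry1, Cry2 and Arntl, with Per2, Nr1d1 and Per1 close together at 2.05, 1.95 and 1.93 FPKM. In HFD it was Clock, Per1, Per2, Nr1d1, Cry1, Cry2 and Arntl. In misty, Arntl ranked below Clock and Per1 at 1.74 FPKM and Per2 was the lowest of the 9 members at 0.0252. In db, Arntl, Per2 and Cry1 lay close together, at 0.721, 0.674 and 0.745 FPKM, and Npas2 was the lowest at 0.221. These orders hold for main transcripts only. Summed over all listed transcripts, Per1 stood at 3.20 FPKM in CD, above Per2 at 2.17 and Nr1d1 at 1.95. The sums of Arntl, Per2 and Cry1 in db were 1.13, 0.766 and 1.63 FPKM and lay farther apart.

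The wider loop was described by a list of 14 clock modifiers, which are receptors, kinases, ubiquitin ligases and repressors that act on the core proteins or genes. For HFD over CD, 5 had a tested transcript, of which 1 was past 2-fold higher and none lower, with a median log2 ratio of -0.05. In db over misty, 6 were tested, of which 2 were past 2-fold higher and none lower, with a median of 0.20. Over all named genes, 6.62% were past 2-fold higher and 2.81% lower in HFD over CD, and 7.06% and 4.81% in db over misty. Ciart, a repressor of the CLOCK and ARNTL pair, stood at 0.235 FPKM in misty and 3.31 in db, a log2 ratio of 3.35 or 10.2-fold higher. It was the 1 modifier past 2-fold in the dietary model, at 1.08 FPKM in CD and 2.26 in HFD, a log2 ratio of 1.01 that lies at the mark. Summed over its transcripts the ratio was 0.94, and with a pseudocount of 1 it was 0.65, both under 2-fold. Bhlhe40, a repressor that binds E-boxes, stood at 3.39 in misty and 7.23 in db, a log2 ratio of 1.07 that became 0.91, under 2-fold, with a pseudocount of 1. The table of the dietary model has no row under the name Bhlhe40. Csnk1d, a kinase that marks PER proteins for turnover, and Prkaa1, the AMPK subunit known to act on CRY1, were within 2-fold in both models. Csnk1d stood at 5.88 FPKM in CD and 4.97 in HFD, and at 1.30 in misty and 1.05 in db. Prkaa1 had a log2 ratio of 0.41 in each model, with 3.57 and 4.78 FPKM in CD and HFD and 3.23 and 4.33 in misty and db.

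Clock outputs, a list of 12 genes whose transcription is known to follow the clock in liver, had 11 tested members in each model. In HFD over CD, 1 was past 2-fold higher and 2 lower, with a median log2 ratio of 0.12. In db over misty, 4 were past 2-fold higher and 1 lower, with a median of 0.21. The shares over all named genes were 6.62% higher and 2.81% lower in HFD over CD, and 7.06% and 4.81% in db over misty. Dbp, a direct E-box target and activator at D-boxes, stood at 1.40 FPKM in misty and 12.7 in db, a log2 ratio of 3.08 or 8.49-fold higher. In the dietary model its values were 18.8 in CD and 18.6 in HFD, a log2 ratio of -0.01. Nampt, the rate-limiting enzyme of NAD salvage, stood at 0.986 in misty and 8.18 in db, a log2 ratio of 2.93, and at 2.94 in CD and 3.74 in HFD, a log2 ratio of 0.34. Tef, a relative of Dbp, stood at 2.94 in misty and 9.83 in db, a log2 ratio of 1.71, while its ratio in the dietary model was -0.28. Wee1, a kinase that holds cells before mitosis, stood at 0.279 in misty and 1.12 in db, a log2 ratio of 1.68, against 0.34 in the dietary model. With a pseudocount of 1 the ratio of Wee1 in db over misty was 0.73, under 2-fold. Summed over its transcripts, with the pseudocount of 0.1, the ratio of Nampt in db over misty was 2.18.

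Among the outputs that were lower, Nfil3, which represses at the D-boxes where Dbp activates, stood at 2.90 FPKM in CD and 1.25 in HFD, a log2 ratio of -1.15. With a pseudocount of 1 this ratio was -0.80, under 2-fold. In the genetic model it stood at 2.47 in misty and 1.35 in db, a log2 ratio of -0.83 that did not reach 2-fold. Elovl3, a fatty acid elongase with a strong daily rhythm in mouse liver, stood at 101 FPKM in misty and 13.3 in db, a log2 ratio of -2.92. In the dietary model its values were 0.497 in CD and 0.0389 in HFD, a log2 ratio of -2.10 between low values that became -0.53 with a pseudocount of 1. Lpin1, a phosphatidate phosphatase and coactivator, stood at 4.59 in CD and 16.0 in HFD, a log2 ratio of 1.78, and at 1.04 in misty and 1.22 in db, a log2 ratio of 0.21. Summed over its listed transcripts Lpin1 gave 2.27 FPKM in misty and 2.14 in db, a log2 ratio of -0.08, of the opposite sign.

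**Figure D3:**
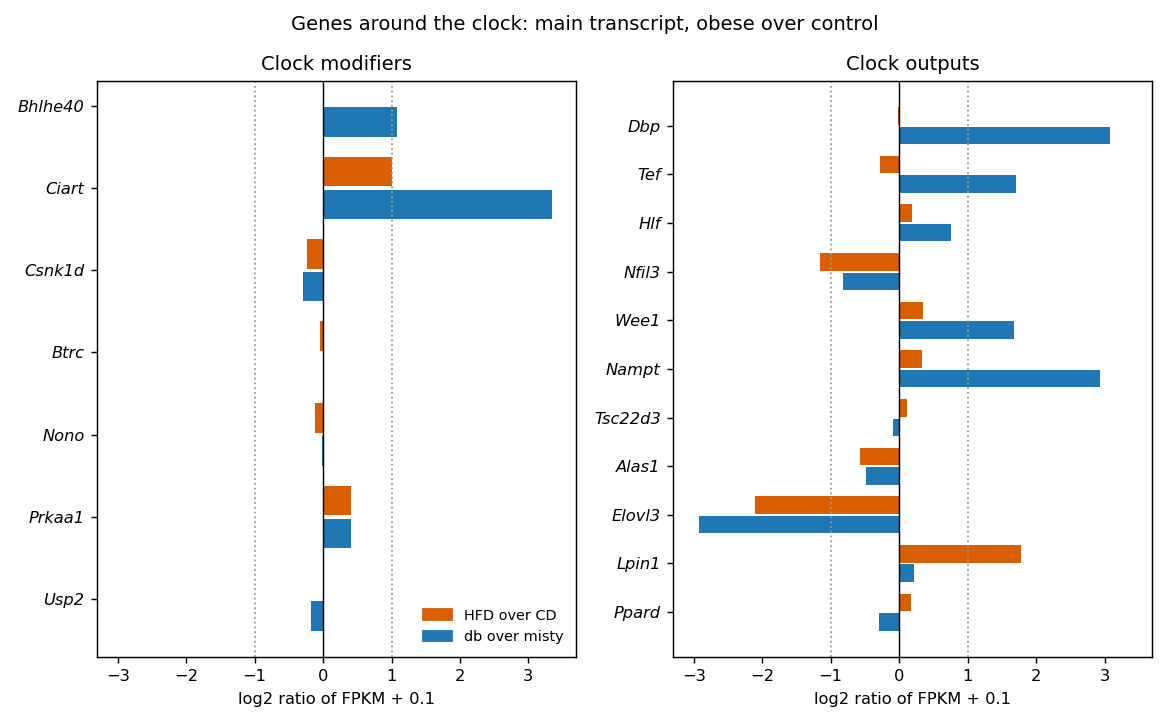
Log2 ratio of FPKM + 0.1 for the main transcripts of clock modifiers (left) and clock outputs (right) tested in at least 1 model. Orange bars are HFD over CD, blue bars db over misty, and dotted lines mark 2-fold. Ciart (3.35), Dbp (3.08) and Nampt (2.93) reach farthest to the right, all in db, and Elovl3 is past 2-fold lower in both models (-2.10 and -2.92).

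Set side by side over both models, 7 members had a tested main transcript in each table, as did 9717 named genes. Per2 lay farthest from 0 in the negative limb, with log2 ratios of -0.17 and 2.63, and Arntl in the positive limb, with -1.42 and -1.16. The genes with the pair of ratios closest to each were taken from 4001 protein-coding genes outside the clock lists. These had 1 FPKM or more in the higher group of each model. Nearest to Arntl were D930007J09Rik (-1.30 and -1.06), the carboxylesterase Ces3a (-1.59 and -1.14), the chromatin factor Mta3 (-1.58 and -1.06) and the major urinary protein Mup3 (-1.61 and -1.28), which has near-identical copies. Nearest to Per2 were the proteasome subunit Psmd7 (-0.04 and 2.75), Mmd2 (-0.09 and 2.79), regucalcin (Rgn, -0.08 and 2.82) and Gm9887 (-0.12 and 2.42). This likeness rests on 2 ratios per gene, over 4 pooled groups, and on the pseudocount of 0.1. The minimum of 1 FPKM was set on the candidates only. Arntl in the dietary model (0.232 FPKM in CD and 0.0237 in HFD) lay below it. So did Per2 in the genetic model (0.0252 in misty and 0.674 in db). Without a pseudocount, Arntl was 9.80-fold lower in HFD and Per2 26.8-fold higher in db. Whether the same genes are nearest under another pseudocount was not tested.

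**Figure D4:**
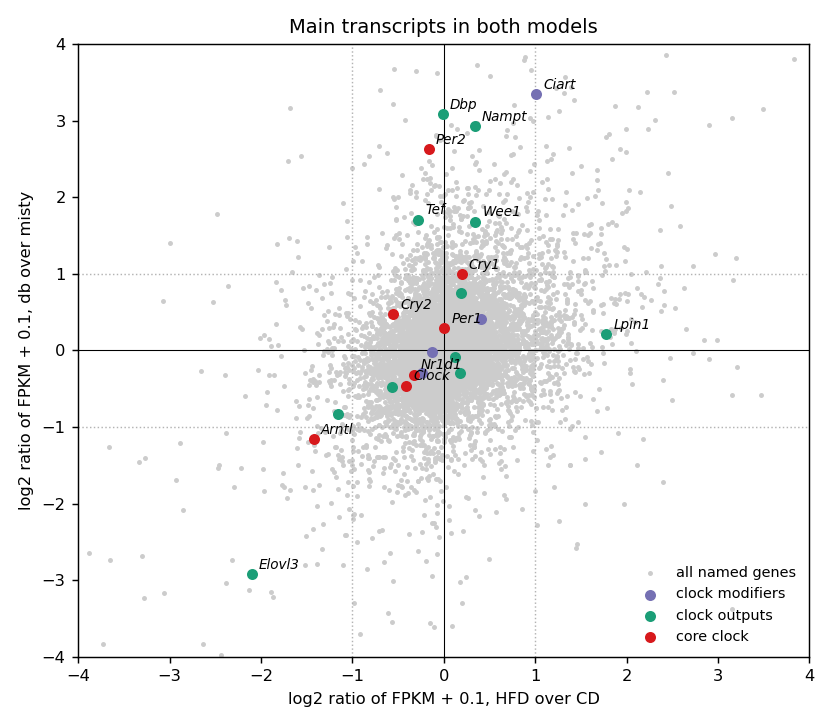
Log2 ratios of main transcripts in the 2 models, HFD over CD on the x axis and db over misty on the y axis, for 9717 named genes (grey) and the clock lists (coloured). Dotted lines mark 2-fold, and 47 genes beyond 4 on either axis are not drawn. Arntl (-1.42 and -1.16) lies past 2-fold lower on both axes, and Per2 (-0.17 and 2.63) with Dbp (-0.01 and 3.08) lies high on the y axis and near 0 on the x axis.

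Markers of other liver cells differed between the groups beside the clock genes, and their part in the clock values was not tested. In HFD over CD, 6 of 9 tested macrophage markers, 3 of 3 neutrophil markers and 4 of 7 lymphocyte markers were past 2-fold higher, and the summed FPKM of macrophage markers was 42.3 in CD and 97.5 in HFD. Of 6 tested hepatocyte markers 2 were past 2-fold lower, with a sum of 22462 in CD and 13972 in HFD. The shares over all named genes in this model were 6.62% higher and 2.81% lower. In db over misty, 1 of 7 tested macrophage markers was past 2-fold higher and 1 lower, with a sum of 28.9 in misty and 26.5 in db. Of 2 tested neutrophil markers in db over misty, 1 was past 2-fold lower and none higher, and of 3 tested lymphocyte markers none was past it. Of 6 tested hepatocyte markers there, 1 (Ttr) was past 2-fold higher and 2 (Apoa1 and Fabp1) lower. Their median log2 ratio was 0.05 and their sum 14411 in misty and 9696 in db. The shares over all named genes in the genetic model were 7.06% higher and 4.81% lower. The hepatocyte genes Alb and Apob were listed at 0 in all 4 groups and marked as low data, and Ttr stood at 3053 FPKM in CD but 0.664 in misty, so the values belong to the transcripts listed and are not totals of a gene.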

How the data were processed

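Strand-specific libraries of ribosome-depleted liver RNA were sequenced. By the study's methods, the dietary model was handled at the Max-Planck Genome-Centre and the genetic model at the Cologne Center for Genomics. Depletion kit, library kit, sequencer and read length also differed between them. A difference between the models therefore cannot be told apart from a difference in library preparation and sequencing. According to the submitters' processing notes and the study's methods, ribosomal reads were removed with Bowtie2 2.2.9, STAR 2.6.0c mapped the rest to GRCm38, and Cufflinks 2.2.1 built the transcripts, which Cuffdiff quantified per model. The deposited values used here are the authors' FPKM, 1 per group and transcript, pooled over livers, with the quantifier's status. The tables also hold the authors' fold changes, test statistics, p-values and q-values, which were not used.

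The tables list 62486 and 62945 transcripts, of which 19834 and 19918 have status OK, among them 9 of 12 and 15 of 18 rows of core clock genes. Ratios were computed in Python 3.11.15 with pandas 2.3.3, as log2 of FPKM + 0.1 in obese over control, and the calculation was tested on simulated data. Rows with 0 in a group gave no ratio. Without a value per liver no test was possible, and a gene was called past 2-fold. Alternatives were a 1.5-fold mark, pseudocounts of 0.01 and 1, sums over transcripts, centring on the median ratio and a minimum of 1 FPKM. Coordinates, transcript names and counts of annotated transcripts were those listed with the deposited values. Exons and their overlaps came from GENCODE M21 and promoters from RefSeq.

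The members and the lists were chosen with earlier results of these data known. All members are named, together with list genes past 2-fold in either model, the 3 most abundant of each list, and the 4 genes nearest in pattern to the member of each limb farthest from 0. Some clock-related genes and a detail of the control genotype are not reported here.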

Additional observations from a re-analysis of the deposited data

How the results depend on the processing

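No paired analysis was possible because the tables hold 1 pooled value per group, and for the same reason no replicate could be left out. Of 156 gene values under the alternatives, 142 moved by less than 1.5 times, 14 moved by more and none called past 2-fold changed sign. Per1 in HFD over CD, not called, took the opposite sign in 2 alternatives. In HFD over CD, 22.1% of all named genes passed a 1.5-fold mark and 2.37% passed 2-fold with a pseudocount of 1. Core clock genes past 2-fold numbered 0 with a pseudocount of 1 and 0 with the minimum of 1 FPKM, which Arntl does not reach. In db over misty, 27.1% of all named genes passed 1.5-fold and 3.94% passed 2-fold with a pseudocount of 1. Core clock genes past the mark on the higher side numbered 2 with the 1.5-fold mark, 2 with a pseudocount of 0.01 and 2 after centring, as Cry1 joined Per2. With a pseudocount of 1 they numbered 0, with 0 higher and 0 lower. With the minimum of 1 FPKM they numbered 1, with 0 higher and 1 lower, Arntl. The members past 2-fold lie below 2 FPKM in both groups of their model, and their ratios depend on the pseudocount, ranging from 0.71 to 4.28 for Per2 and from -2.10 to -0.70 for Npas2 in db over misty. The median log2 ratio of all tested transcripts was -0.03 in HFD over CD and -0.04 in db over misty.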

Other observations

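Quotients of 2 genes within a group do not depend on how a group was scaled, and are given as values with no test, chosen after the data were seen. Over all listed transcripts, the quotient of Per2 to Arntl was 9.37 in CD and 85.8 in HFD, and 0.0537 in misty and 0.675 in db. The quotient of Dbp to Arntl was 81.0 in CD and 786 in HFD, and 0.488 in misty and 11.2 in db. The quotient of Cry1 to Arntl was 4.72 in CD and 53.5 in HFD, and 0.329 in misty and 1.44 in db. The quotient of Clock to Arntl was 34.8 in CD and 255 in HFD, and 5.16 in misty and 9.49 in db. The quotients use no pseudocount and share Arntl as the denominator, so a difference between groups restates in part that of Arntl itself, which in the dietary model is a single transcript at 0.0237 FPKM in HFD.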
